A study of Mus musculus with 20 samples.

Results

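The genes described here encode the proteasome, measured in the hypothalamus of obese mice given celastrol or its vehicle. They were chosen by name, as every gene whose symbol opens with Psma, Psmb, Psmc, Psmd or Psme and a digit and that had a probe set with that symbol alone. The rule found 45 of the 18704 genes with such a probe set, and 43 of them were bright enough to be tested among 14129 genes. A probe set is the group of probes that reads 1 transcript, and its value is an intensity on the log2 scale. The brightest probe set stood for each gene. Psma8, the alpha subunit of testis, and Psmb8 were below the brightness filter and have values but no test. A further probe set carried both Psme2b and Psme2 and was not used.

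The proteasome is the large protease that degrades proteins marked with ubiquitin. Its core particle is a barrel of alpha rings, which gate the entry, and beta rings, which hold the catalytic sites. The regulatory particle caps the barrel: its base holds ATPases that unfold the substrate, and its lid removes ubiquitin. Under interferon the catalytic subunits Psmb5, Psmb6 and Psmb7 are replaced by Psmb8, Psmb9 and Psmb10, which favours peptides for MHC class I, and the activators Psme1 and Psme2 open the barrel without ATP. When the proteasome is inhibited, the transcription factor Nfe2l1 (Nrf1) is known to raise the transcripts of its subunits through antioxidant response elements. Celastrol, a triterpenoid of the thunder god vine, has been reported to inhibit the proteasome in cultured tumour cells, and the comparisons ask whether its subunit transcripts differ in treated animals.

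Of the 43 tested genes, 38 encode subunits. They comprise 7 alpha, 4 structural beta and 3 constitutive catalytic beta subunits, the immune subunits Psmb9 and Psmb10, the thymus subunit Psmb11, 6 base ATPases, 3 other base subunits, 8 lid subunits and 4 activators. Psmd5, Psmd9 and Psmd10 are chaperones that help to assemble the base. Psmc3ip and Psme3ip1 match by name only and are no subunits. Psma3 had 3 probe sets, and Psma5, Psmb3, Psmc1 and Psmd2 had 2 each. Subunit genes have processed copies in the genome, so the values of these 5 genes are uncertain as to the locus they read.

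All mice were male C57BL/6J, with no genetic change named in the labels, and 4 weeks old when a diet of 45% fat began, which lasted 16 weeks and made them obese. They received injections into the peritoneum of dimethyl sulfoxide (DMSO, the solvent; 25 µl per day) or of celastrol in DMSO. The 6 groups were DMSO at 6 h, 1 day and 4 days, with 3 arrays each, and celastrol at 6 h and 1 day, with 4 arrays each, and at 4 days, with 3. The labels set a celastrol dose of 250 µg/kg beside the 6 h time only, and there were no lean and no untreated mice. The arrays of a group are labelled biological replicates, with no word on whether a sample is 1 animal.

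The tissue is a whole brain region, in which fewer cells of a type and less RNA per cell cannot be told apart. All 18 hypothalamic markers analysed were above the brightness filter when averaged over the arrays, among them Pmch (melanin-concentrating hormone, 12.64 to 13.13) and Hcrt (orexin, 12.30 to 12.94). The DMSO arrays 6 h replicate 3 and 1 day replicate 3 stood apart from the others on the leading component of the deviations from group means (11.4 and 9.61, against -6.13 to 5.32 on the other arrays). Some of the counts over the members, correlations and time differences that rest on them are also given without both.

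Sequences of 4 promoters are shown because they carry the motifs of the known regulators of these genes. Each is the 250 bases before an annotated start, read 5′ to 3′ on the gene's strand, from RefSeq on GRCm38.p6. Capitals mark an antioxidant response element in Psmb5 (chr14:54617996-54618245, minus strand, motif starting 47 bases before the start). In Psmc6 (chr14:45329574-45329823, plus strand) they mark such an element on the other strand and an ETS site, and in Psme4 (chr11:30771525-30771774, plus strand) an ETS site. In Psmb9 (chr17:34187331-34187580, minus strand) they mark a CCAAT box on the other strand.
Psmb5: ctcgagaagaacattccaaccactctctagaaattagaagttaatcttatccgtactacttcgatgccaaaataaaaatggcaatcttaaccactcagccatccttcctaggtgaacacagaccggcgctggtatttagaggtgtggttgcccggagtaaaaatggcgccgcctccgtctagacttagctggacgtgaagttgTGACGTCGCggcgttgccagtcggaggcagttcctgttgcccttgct
Psmc6: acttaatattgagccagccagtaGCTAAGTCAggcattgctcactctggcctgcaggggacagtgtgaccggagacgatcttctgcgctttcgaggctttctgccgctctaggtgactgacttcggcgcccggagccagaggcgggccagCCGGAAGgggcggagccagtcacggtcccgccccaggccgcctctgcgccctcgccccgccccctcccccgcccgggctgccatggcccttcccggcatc
Psme4: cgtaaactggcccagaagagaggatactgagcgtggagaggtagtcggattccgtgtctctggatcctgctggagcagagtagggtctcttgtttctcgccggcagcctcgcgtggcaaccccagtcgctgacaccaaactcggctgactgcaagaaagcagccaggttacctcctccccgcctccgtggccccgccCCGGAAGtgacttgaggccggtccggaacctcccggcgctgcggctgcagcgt
Psmb9: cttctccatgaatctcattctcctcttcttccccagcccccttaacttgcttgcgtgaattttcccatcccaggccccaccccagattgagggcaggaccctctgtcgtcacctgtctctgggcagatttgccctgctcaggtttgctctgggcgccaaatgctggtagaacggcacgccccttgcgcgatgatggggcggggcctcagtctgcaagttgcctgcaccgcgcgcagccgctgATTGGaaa

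The motifs were searched on both strands of all windows of this length, and overlaps between motifs were not removed. Windows were found for 38 of the 45 genes, 42 in all because some genes have several starts. The ETS site, searched as CCGGAAG, stood in 13 of the 42 windows (31%), against 6.91% of all 32851 windows and 11.4% of the 14446 windows of tested genes. The antioxidant response element, searched as TGACNNNGC, stood in 5 windows (11.9%, against 11.3% in windows of tested genes), those of Psmb5, Psmb6, Psmc6, Psmd12 and Psmd9. The GC box GGGCGG stood in 54.8% against 54.7% in windows of tested genes, and CCAAT in 38.1% against 34.2%. The Psmb9 window overlaps that of Tap1, the peptide transporter of antigen presentation, which is read in the other direction. These counts describe letters and no bound sites.

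At 6 h after the injection, no proteasome gene differed between celastrol and DMSO past the threshold, which was an adjusted p of 0.05 in limma. Of all 14129 genes, 0% passed at this time, and the smallest adjusted p of a proteasome gene was 0.647. The differences leaned low, with 11 of the 43 genes higher after celastrol and a median log2 difference of -0.033. Over all genes 41.7% were higher, with a median of -0.015. Among genes above the 40th percentile of mean intensity, 34.6% were higher, with a median of -0.024. At an unadjusted p under 0.05 stood 2 genes, Psma4 and Psmc4, both lower, which is 4.65% of the members against 7.55% of all genes.

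Psmc4 encodes an ATPase of the base. Its log2 intensity was 10.68, 10.66 and 10.66 on the DMSO arrays and 10.53, 10.58, 10.60 and 10.52 on the celastrol arrays at 6 h. Every celastrol array lay below every DMSO array, and the difference was -0.11 ± 0.046 (SE, adjusted p = 0.647). Psma4, an alpha subunit, read 9.99, 10.18 and 10.23 after DMSO and 10.04, 10.03, 9.97 and 10.01 after celastrol. Here the lowest DMSO array fell within the celastrol range, with a difference of -0.12 ± 0.050 (SE, adjusted p = 0.647). Psma6, also an alpha subunit, read 11.27, 11.25 and 11.27 after DMSO and 11.14, 11.04, 11.18 and 11.16 after celastrol, again without overlap. Its difference of -0.13 ± 0.064 (SE) had an adjusted p of 0.662. Groups that did not overlap were found for 3 members at 6 h, the other being the ubiquitin receptor Psmd4, all with celastrol lower, and for 6.35% of all genes.

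Among the 11 members that were higher at 6 h, Psmb11, Psmb3 and Psme1 had the smallest p. Psmb11, the beta subunit of thymus epithelium, read 7.07, 7.13 and 6.84 after DMSO and 7.07, 7.18, 7.31 and 7.25 after celastrol, close to the filter of 7.04. Its difference of 0.19 ± 0.090 (SE) was the largest of any member at 6 h and did not pass (adjusted p = 0.658). Psmb3, a structural beta subunit, stood 0.073 ± 0.038 (SE) higher and the activator Psme1 0.044 ± 0.049 (SE) higher, and neither passed. The other probe set of Psmb3 gave -0.0044 at 6 h.

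By class, 1 of 7 alpha subunits, 1 of 6 base ATPases and 1 of 8 lid subunits were higher after celastrol at 6 h, with medians of -0.075, -0.061 and -0.056. The structural beta subunits (2 of 4 higher, median 0.013) and the catalytic ones (1 of 3 higher, median -0.0086) lay nearer to 0. The 4 activators had a median of -0.025. This lean was smaller without 1 vehicle array: without DMSO 6 h replicate 3, one of those that stood apart, 19 of the 43 genes were higher and the median was -0.0086, against 45.2% and -0.0075 over all genes. With the arrays quantile normalized again, 19 were also higher, and the median was -0.0057, against 49.5% and -0.0010 over all genes. Beside the 6 h lean, 7 of 8 thalamus markers were also lower after celastrol, with a median of -0.25, and 5 of them stood at an unadjusted p under 0.05. Their summed linear intensity was 11480 to 13883 after DMSO and 10226 to 11560 after celastrol, and their part in the subunit values was not tested.

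One day after the injection the lean was the other way, and again no proteasome gene passed. Of all genes 0.425% passed at this time, and the smallest adjusted p of a member was 0.406, that of Psma5. Of the 43 genes, 35 were higher after celastrol with a median of 0.041, against 53.8% of all genes with a median of 0.0063. Among genes above the 40th percentile of mean intensity, 58.3% were higher (median 0.013). At an unadjusted p under 0.05 stood 4 members, with Psma5, Psmc6 and Psme1 higher and Psmb11 lower, which is 9.30% of the members against 8.19% of all genes.

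Psma5, an alpha subunit, read 9.11, 9.16 and 9.19 after DMSO and 9.34, 9.34, 9.38 and 9.15 after celastrol. Celastrol replicate 4 lay among the vehicle arrays and the other 3 above them, with a difference of 0.15 ± 0.053 (SE, adjusted p = 0.406). Its other probe set, which was dimmer, gave a difference of 0.12 at 1 day. Psmc6, an ATPase of the base whose promoter is shown above, read 10.38, 10.45 and 10.53 after DMSO and 10.63, 10.67, 10.56 and 10.53 after celastrol. It was the only member whose groups did not overlap at 1 day, beside 7.81% of all genes, and the difference of 0.14 ± 0.056 (SE) had an adjusted p of 0.462. At 6 h the same gene stood at -0.10 ± 0.056 (SE).

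Psme1 (PA28 alpha), an activator, read 10.37, 10.36 and 10.36 after DMSO and 10.56, 10.49, 10.46 and 10.36 after celastrol. Of the celastrol arrays, 3 lay above all vehicle arrays, and the difference was 0.10 ± 0.049 (SE, adjusted p = 0.610). Psmb11 read 7.26, 7.21 and 7.02 after DMSO and 6.83, 6.92, 7.06 and 7.03 after celastrol, 3 of these below the filter. Its difference of -0.20 ± 0.090 (SE, adjusted p = 0.558) had the sign opposite to that at 6 h. The lower members also included Psmc4 (-0.058 ± 0.046, SE) and Psmc3ip, a partner of Psmc3 in name that acts in meiotic recombination (-0.090 ± 0.075, SE).

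All 7 alpha subunits, all 3 constitutive catalytic subunits and all 4 activators were higher after celastrol at 1 day, with medians of 0.074, 0.081 and 0.073. Of the lid subunits 7 of 8 were higher (median 0.059), and of the base ATPases 5 of 6 (median 0.044). The structural beta subunits were split, with 2 of 4 higher and a median of -0.0066. The lean was smaller without celastrol replicate 3, when 27 of the 43 genes were higher with a median of 0.013, and 51.2% of all genes. Without celastrol replicate 4 the median was 0.069. With both vehicle arrays that stood apart left out, 35 genes were higher, with a median of 0.063, against 57.7% and 0.016 over all genes.

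At 4 days the 43 genes leaned high less than at 1 day, and none passed the threshold, which 0.0637% of all genes did. The smallest adjusted p was 0.774, that of Psmb4, and no member reached an unadjusted p of 0.05. Higher after celastrol were 27 of 43 genes with a median of 0.014, against 54.4% and 0.0075 over all genes. Among genes above the 40th percentile of mean intensity the share was 57.9% (median 0.013). Psmb4, a structural beta subunit, read 11.75, 11.72 and 11.86 after DMSO and 11.87, 11.85 and 11.91 after celastrol, which overlapped at a single pair of arrays. Its difference of 0.10 ± 0.051 (SE) was the largest of any member at this time.

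Groups without overlap at 4 days were those of Psma5, Psmd1 and Psmd2, all with celastrol higher, beside 14.4% of all genes. The other probe set of Psma5 stood at -0.027 at this time, against 0.041 for the one used. Psmd2, a scaffold of the base, read 11.58, 11.53 and 11.60 after DMSO and 11.69, 11.60 and 11.64 after celastrol. The difference was 0.075 ± 0.044 (SE, adjusted p = 0.832), and 0.046 on its other probe set. Psme4 (PA200), an activator with a part in histone degradation, differed by 0.092 ± 0.053 (SE, adjusted p = 0.826). The lowest differences were those of the ATPase Psmc1 (-0.094 ± 0.074, SE), of Psmb9 (-0.087 ± 0.087, SE) and of the ATPase Psmc3 (-0.050 ± 0.066, SE). The other probe set of Psmc1 gave -0.045. Of the base ATPases 1 of 6 was higher, of the lid 7 of 8, and of the constitutive core subunits 12 of 14 (median 0.031). The 4-day median was 0.0031 without DMSO 4 days replicate 1 and 0.027 without celastrol 4 days replicate 2.

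**Figure D1:**
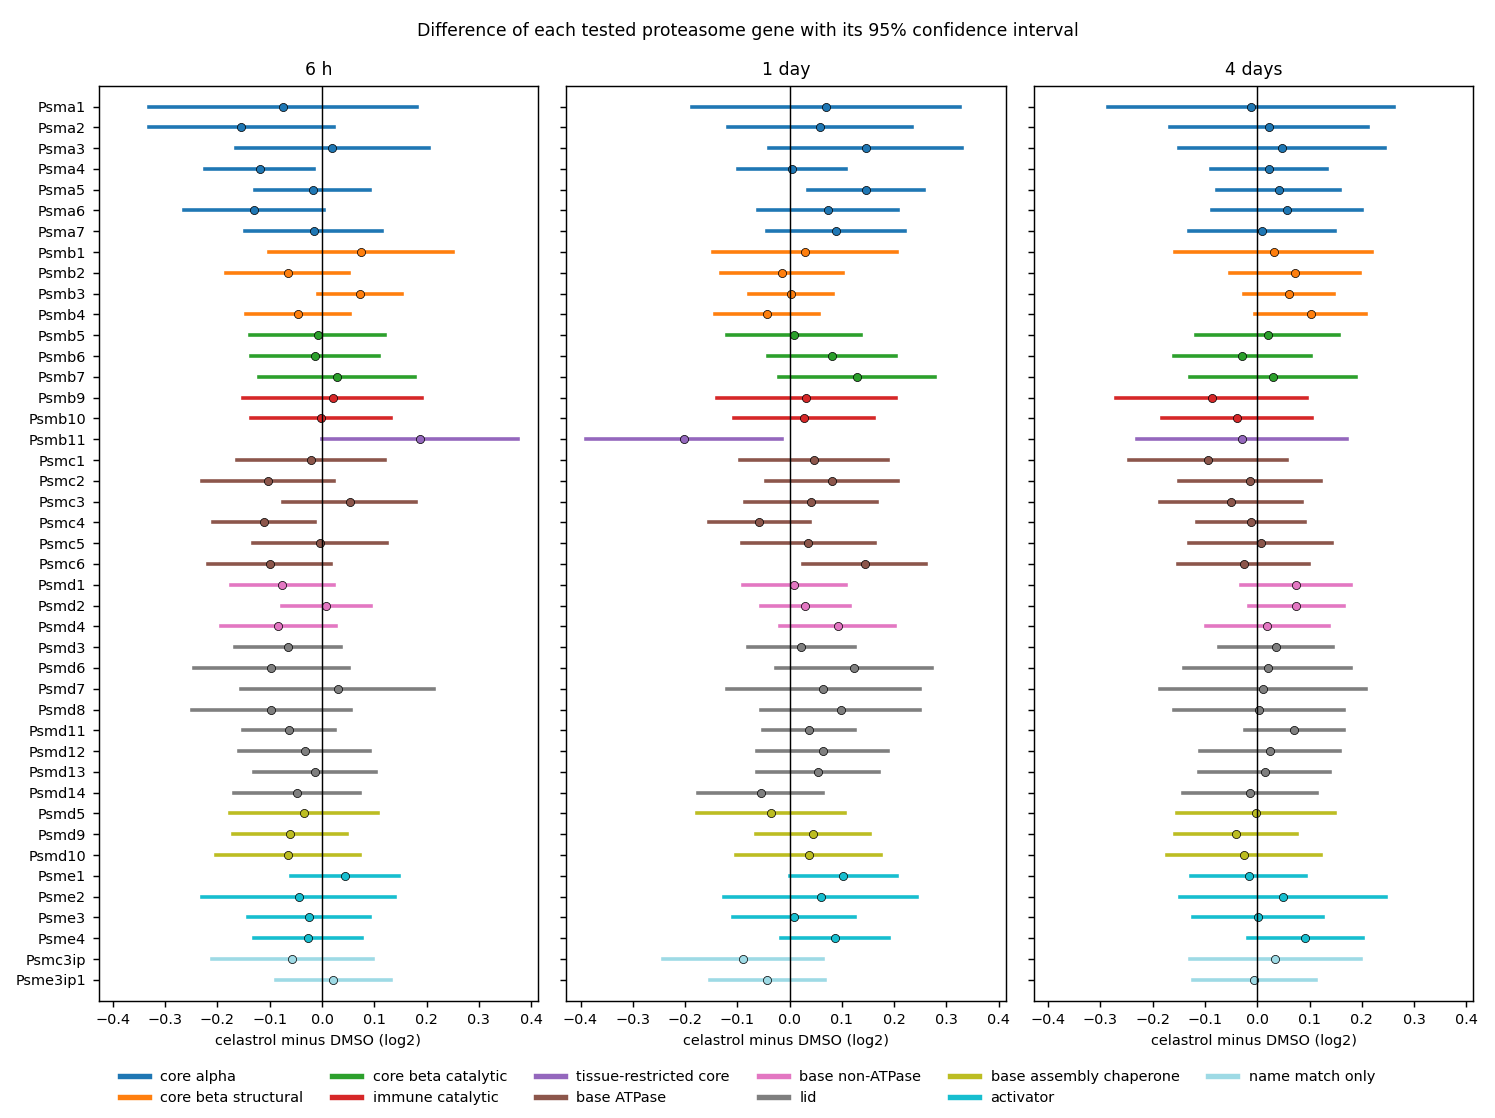
Difference of each of the 43 tested proteasome genes between celastrol and DMSO (log2, horizontal axis) at 6 h, 1 day and 4 days, with its 95% confidence interval and coloured by class. At 6 h 11 genes lie right of 0, at 1 day 35 and at 4 days 27, and none passed the threshold at any time.

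Averaged over the 3 times, no member passed, beside 0.573% of all genes. The smallest adjusted p was 0.532, that of Psmc4, whose mean difference was -0.060 ± 0.027 (SE) and which was lower at each time. It was also the only member at an unadjusted p under 0.05. The celastrol effect differed between the times for no member and for 0.0142% of all genes. At an unadjusted p under 0.05 stood Psmc6 and Psmb11, with adjusted p of 0.679 and 0.680 in limma's F-test.

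The intervals show, for each gene and time alone, the range of change that these arrays allowed. Over all 43 genes, the widest 95% intervals ran from -0.33 to 0.37 at 6 h, from -0.39 to 0.33 at 1 day and from -0.29 to 0.26 at 4 days. No member's interval thus held a change above 1.30-fold at 6 h, 1.31-fold at 1 day or 1.22-fold at 4 days in either direction. The intervals were not adjusted for the number of genes and times, so a true change may lie outside some of them. Psma8 and Psmb8, which were not tested, have no interval. A miss of the threshold does not show that the levels were equal.

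Psmb5 is the chymotrypsin-like catalytic subunit, the activity that celastrol was reported to inhibit. It read 12.83, 12.76 and 12.80 after DMSO and 12.66, 12.75, 12.98 and 12.78 after celastrol at 6 h. The celastrol arrays enclosed the vehicle range, and the difference was -0.0086 with a 95% interval of -0.14 to 0.12. At 1 day it was 0.0087 (-0.12 to 0.14) and at 4 days 0.020 (-0.12 to 0.16). Psmb6, the caspase-like subunit, differed by -0.013 ± 0.059, 0.081 ± 0.059 and -0.029 ± 0.063 (SE) in the order of the times. Psmb7, the trypsin-like subunit, differed by 0.028 ± 0.071, 0.13 ± 0.071 and 0.031 ± 0.076 (SE). The Psmb7 value at 1 day came with a reading of 10.71 on celastrol replicate 3, beside 10.44, 10.38 and 10.26 on the others.

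The immune subunits showed no difference past the threshold. Psmb9 read 8.53, 8.48 and 8.34 after DMSO at 6 h and 8.35, 8.63, 8.36 and 8.54 after celastrol, overlapping almost entirely. Its differences were 0.020 ± 0.082, 0.032 ± 0.082 and -0.087 ± 0.087 (SE) at 6 h, 1 day and 4 days. Psmb10 differed by -0.0020 ± 0.064, 0.027 ± 0.064 and -0.039 ± 0.069 (SE). Psmb8 was too dim to be tested and read 6.80 to 7.06 after DMSO and 6.88 to 7.12 after celastrol at 6 h. At 1 day its range was 6.93 to 7.22 after DMSO and 6.996 to 7.24 after celastrol, and at 4 days 6.89 to 7.09 and 6.75 to 7.03. These ranges overlapped at each time, and the values lay close to the filter.

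Across the 20 arrays, taken as deviations from group means, the immune subunits and activators were compared in pairs. The correlation of Psmb9 with Psmb10 was r = 0.24 (permutation p = 0.421, rho = 0.34, permutation p = 0.235) and 0.18 without the 2 arrays farthest from the median. Without both vehicle arrays that stood apart it was 0.60, so this value rests on them. For Psmb9 with Tap1, whose promoter window overlaps its own, r was -0.39 (permutation p = 0.213, rho = -0.40, permutation p = 0.153) and -0.25 without the 2 farthest arrays (-0.45 without the vehicle arrays that stood apart). For the partners Psme1 and Psme2 r was 0.23 (permutation p = 0.404, rho = 0.23, permutation p = 0.395), 0.093 without the 2 farthest arrays and 0.24 without those that stood apart. Of 6 such pairs none passed, with adjusted p of r from 0.631 to 0.817 and of rho from 0.470 to 0.575.

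The main immune cells of the brain are microglia. The summed linear intensity of 12 microglial markers, 11 of them above the filter, was 8162 to 9397 after DMSO and 8216 to 8858 after celastrol at 6 h. At 1 day the ranges were 8545 to 9040 and 8292 to 9345, and at 4 days 8119 to 8839 and 8371 to 10157. They overlapped at each time. Of the blood leukocyte markers, S100a8, S100a9, Ccr2, Cd79a and Plac8 were below the filter.

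The subunits varied together from array to array within a group. Over the 703 pairs of the 38 subunits, the median correlation of deviations from group means across the 20 arrays was 0.26, and 71.4% of pairs were positive. For every 7th tested gene by name, 2019 genes in all, the median was 0.017. The arrays share their scan, scaling and RNA quality, so this is a description with no test. Among themselves the structural beta subunits had a median correlation of 0.60, the lid subunits 0.48, the other base subunits 0.43 and the alpha subunits 0.40. The base ATPases had 0.093 and the activators -0.10. Psmd8 and Psmd6 of the lid followed the rest most closely (median r of 0.52 and 0.50), while Psmb11, Psmb9 and Psme4 ran against it (-0.35, -0.21 and -0.16). Without both vehicle arrays that stood apart, the median over the 703 pairs was 0.18, with 65.7% positive, and that of every 7th gene 0.012. The medians of the structural beta, lid, other base and alpha subunits were then 0.45, 0.34, 0.42 and 0.39. Those of the base ATPases and activators were 0.090 and -0.19. Psmd8 and Psmd6 had medians of 0.49 and 0.42, and Psmb11, Psmb9 and Psme4 had -0.13, -0.087 and -0.28.

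Single arrays stood out. The mean over the 38 subunits was lowest on DMSO 6 h replicate 1 (10.520) and highest on celastrol 1 day replicate 3 (10.678). On the latter 30 of 38 subunits lay above their group mean, and on replicate 4 of the same group 7 did, while 58.9% and 41.1% of all genes did so. On the vehicle arrays that stood apart, 31 and 30 of 38 subunits lay above their group mean, and 56.6% and 60.8% of all genes. A typical subunit was no more variable than other genes: its residual SD was 0.080 at the median, and 0.080 over all tested genes.

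**Figure D2:**
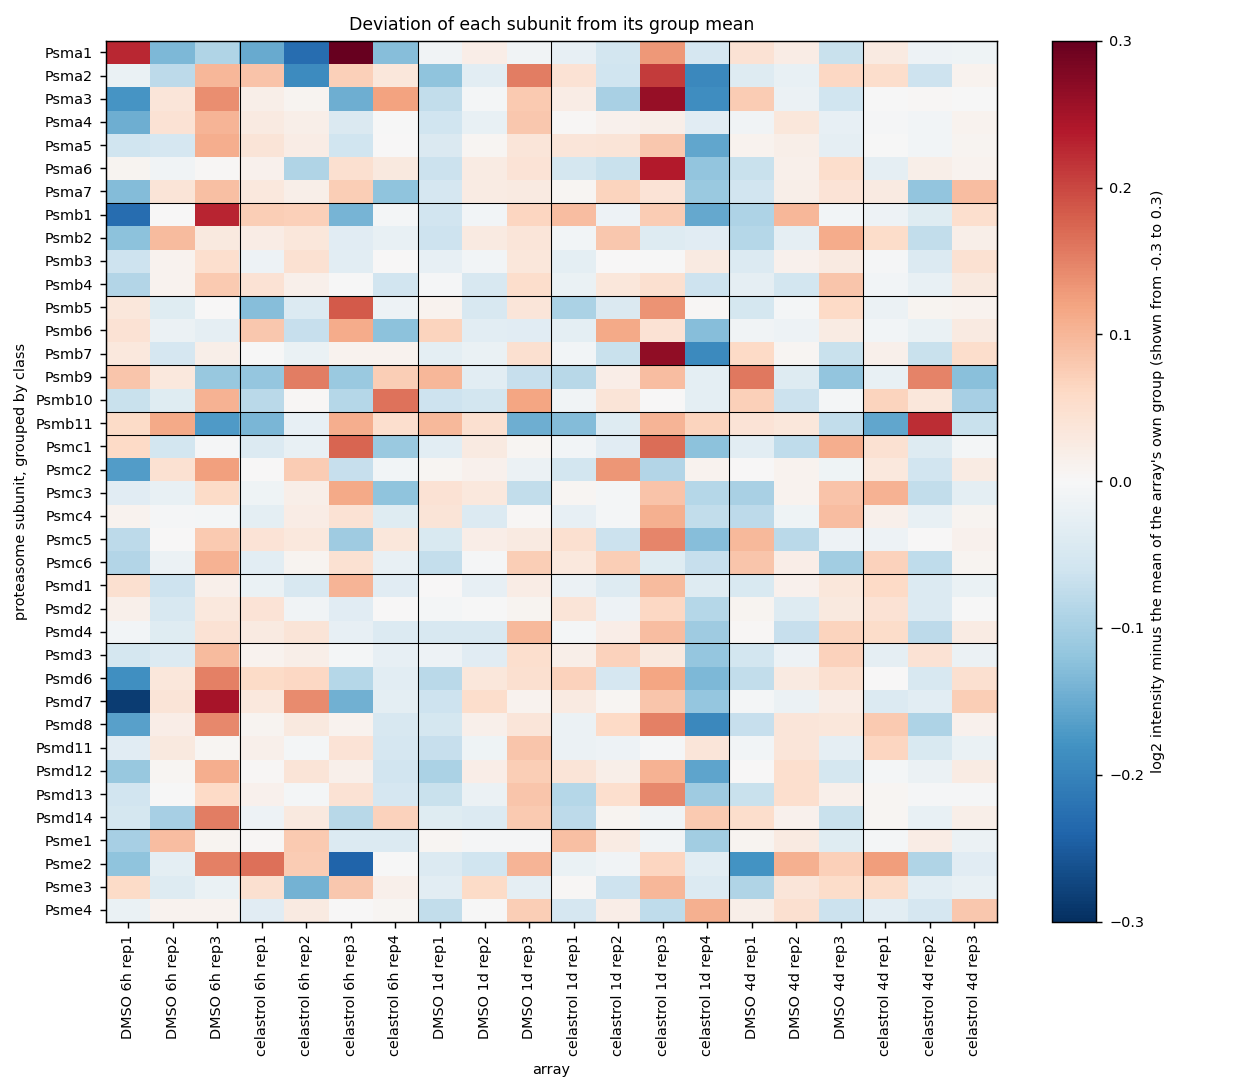
Deviation of each of the 38 tested subunits (rows, grouped by class) from the mean of the array's own group on each of the 20 arrays (columns), as log2 intensity from blue (low) to red (high). The column of celastrol 1 day replicate 3 is mostly red, with 30 of 38 subunits above the mean, and that of replicate 4 mostly blue, with 7 of 38 above.

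By class, the mean over the 14 constitutive core subunits was 11.02 ± 0.055 after DMSO and 10.99 ± 0.031 after celastrol at 6 h (SD, n = 3 and 4). At 1 day it was 11.01 ± 0.042 and 11.06 ± 0.084 (SD, n = 3 and 4), and at 4 days 11.05 ± 0.019 and 11.09 ± 0.029 (SD, n = 3 each). For the 17 base and lid subunits the same means were 10.60 ± 0.077 and 10.55 ± 0.024, then 10.56 ± 0.035 and 10.61 ± 0.065, then 10.56 ± 0.018 and 10.57 ± 0.034. The celastrol and vehicle arrays of these classes overlapped at each time. The 4 activators differed in this respect at 1 day, where the celastrol arrays (10.55 to 10.58) lay above the vehicle arrays (10.46 to 10.53). At that time the groups of 7.81% of single genes did not overlap either. The class means carry no test, and no activator passed alone.

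**Figure D3:**
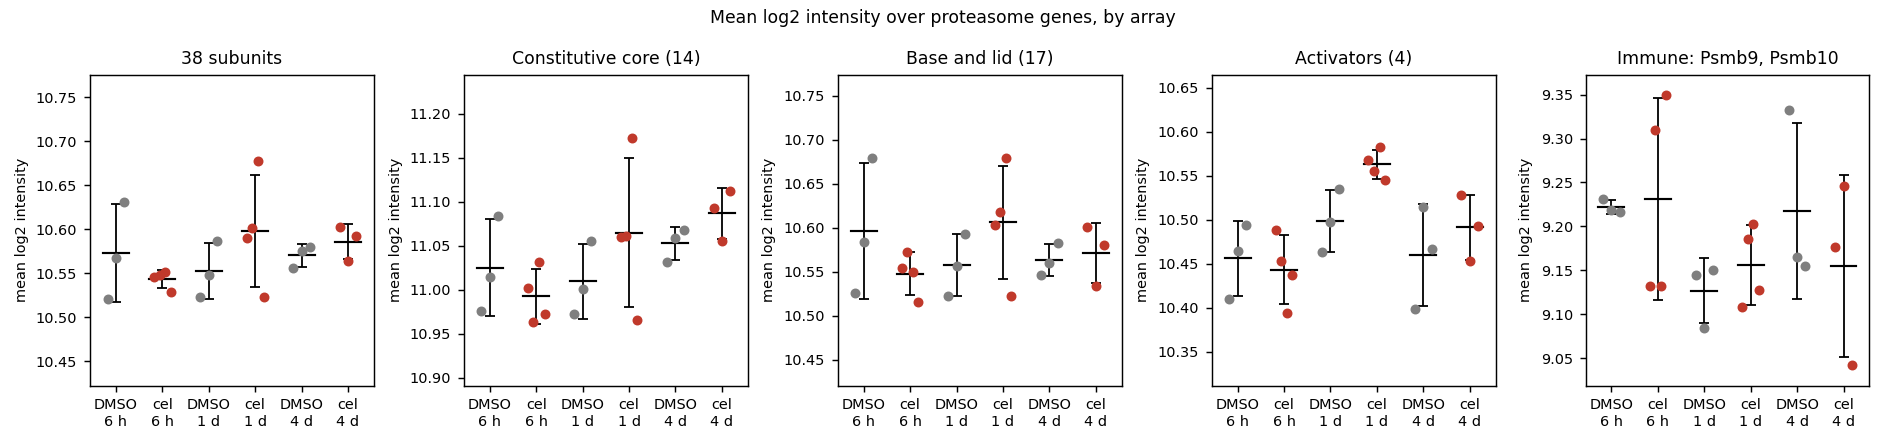
Mean log2 intensity per array (points; grey DMSO, red celastrol) over the 38 subunits, the 14 core subunits, the 17 base and lid subunits, the 4 activators and the immune pair Psmb9 and Psmb10, with group means (bars) and SD (whiskers), on vertical axes of about equal span that do not start at 0. The groups overlap at each time except for the activators at 1 day, where celastrol arrays lie at 10.55 to 10.58 and DMSO arrays at 10.46 to 10.53. Of single genes, 7.81% do not overlap at 1 day.

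Within a treatment, the arrays of the 3 times were compared as well. Sampling time and duration of treatment cannot be told apart in the celastrol arrays. Among celastrol arrays no member passed limma's F-test, beside 0.226% of all genes, and 12 of 43 stood at an unadjusted p under 0.05 (27.9%, against 21.2% of all genes). The smallest adjusted p was 0.0757, shared by Psmb2 and Psmb4, both structural beta subunits, and Psma6 followed at 0.0806. Among DMSO arrays no member passed, beside 0.0849% of all genes, and 6 stood at an unadjusted p under 0.05 (13.95%, against 11.9% of all genes). The smallest adjusted p there was 0.222, again that of Psmb4.

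Psmb2 read 11.89, 11.90, 11.83 and 11.84 in celastrol arrays at 6 h, 12.04, 12.12, 12.004 and 12.01 at 1 day, and 12.17, 12.04 and 12.13 at 4 days. Every array of the later times lay above every array of 6 h. In a pairwise comparison added after seeing the data, Psmb2 rose by 0.25 ± 0.056 (SE) from 6 h to 4 days of celastrol (adjusted p = 0.046). It was the only member past the threshold in that comparison, beside 0.892% of all genes. The call was kept in 7 of the 20 fits that left out 1 array, with adjusted p from 0.034 to 0.182, the highest without celastrol 4 days replicate 1. In DMSO arrays, which read 11.81, 12.03 and 11.96 at 6 h and 11.96, 12.02 and 12.16 at 4 days, the same difference was 0.11 ± 0.060 (SE, adjusted p = 0.523). The celastrol effect on Psmb2 did not differ between times past the threshold (adjusted p = 0.779).

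Psmb4 stood 0.19 ± 0.047 (SE, adjusted p = 0.059) higher at 4 days than at 6 h of celastrol, and passed without both vehicle arrays that stood apart (adjusted p = 0.035). In DMSO arrays it was highest at 1 day, at 11.91, 11.87 and 11.97, above all arrays of 6 h (11.65, 11.75 and 11.81), by 0.18 ± 0.051 (SE, adjusted p = 0.144). Without the arrays that stood apart this difference was 0.20 (adjusted p = 0.257). The celastrol arrays at 1 day read 11.85, 11.91, 11.92 and 11.81, so that both treatments were higher at 1 day than at 6 h. Psma6 stood 0.23 ± 0.064 (SE, adjusted p = 0.070) higher at 4 days than at 6 h of celastrol and 0.044 ± 0.069 (SE) higher in DMSO. Psmb10 was lower at 1 day than at 6 h in both treatments, by -0.21 ± 0.069 (SE) in DMSO and -0.18 ± 0.059 (SE) in celastrol, without overlap in either and without passing. The DMSO difference was -0.22 without the arrays that stood apart (adjusted p = 0.339).

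**Figure D4:**
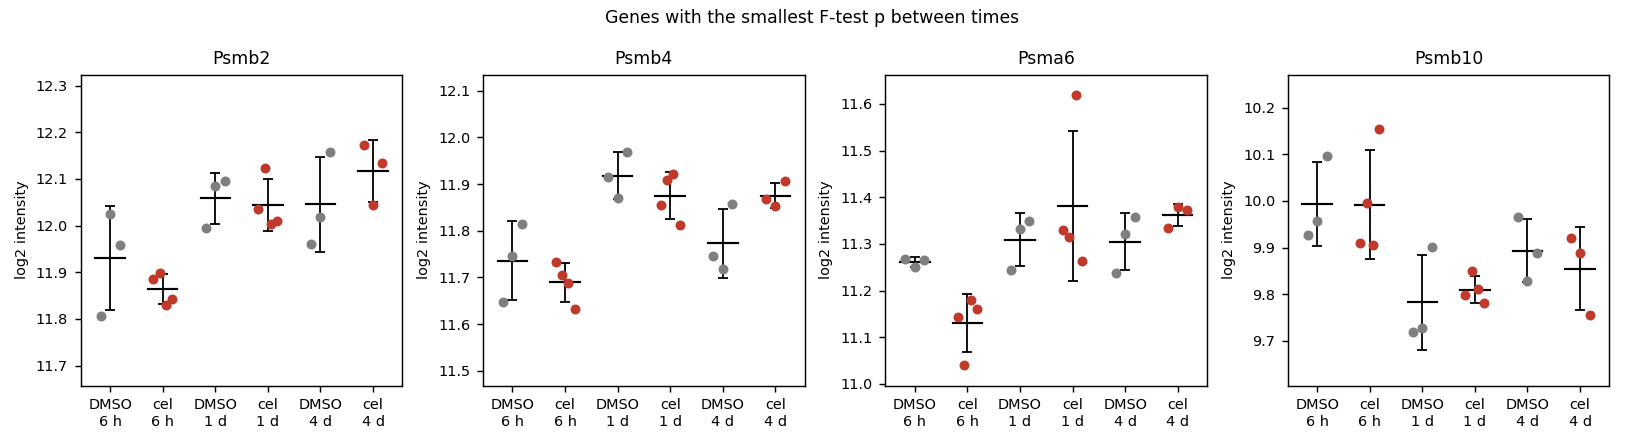
Log2 intensity of Psmb2, Psmb4, Psma6 and Psmb10 on each array (points; grey DMSO, red celastrol) by group, with group means (bars) and SD (whiskers). Psmb2 in celastrol arrays lies at 11.83 to 11.90 at 6 h and at 12.04 to 12.17 at 4 days, and Psmb10 is lower at 1 day than at 6 h in both treatments.

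Other genes of the pathway were read from lists. No gene of the 7 lists passed the threshold at any of the 3 times. Of the regulatory particle subunits named otherwise, the deubiquitinase Uchl5 differed by -0.10 ± 0.062, 0.068 ± 0.062 and -0.085 ± 0.067 (SE) at 6 h, 1 day and 4 days. The small lid subunit Sem1 differed by 0.17 ± 0.080 (SE, adjusted p = 0.596) at 1 day, at an unadjusted p of 0.045. Of 6 tested assembly factors and inhibitors, 1, 4 and 2 were higher at the 3 times. Among them the maturation factor Pomp differed by -0.081 ± 0.055 at 6 h and 0.075 ± 0.059 (SE) at 4 days, and the inhibitor Psmf1 by 0.047 ± 0.054 (SE) at 1 day.

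The transcription list holds the regulators of the rebound, and 5, 4 and 6 of its 7 tested genes were higher at the 3 times. Nfe2l1 itself differed by 0.036 ± 0.048, 0.0019 ± 0.048 and 0.036 ± 0.051 (SE). Keap1, the adaptor that marks Nfe2l2 for degradation, differed by 0.11 ± 0.055 (SE, adjusted p = 0.774) at 4 days. Of 11 shuttles, ligases and deubiquitinases, 4, 8 and 6 were higher. Usp14, the deubiquitinase of the base, leaned low at 6 h (-0.12 ± 0.059, SE) and Zfand2a, a stress-induced proteasome partner, leaned high (0.099 ± 0.051, SE), neither passing. Of 8 genes for ubiquitin activation and the p97 segregase, 1 was above 0 at 6 h, 7 at 1 day and 6 at 4 days. Over all genes 41.7%, 53.8% and 54.4% were higher at the 3 times, the background for the counts of all 7 lists. The activating enzyme Uba6 differed by -0.11 ± 0.051 (SE, adjusted p = 0.658) at 6 h, and neither Ufd1 (1 day) nor Ubxn7 (4 days), which had the smallest p of the list at those times, passed.

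In the MHC class I list, 5, 3 and 4 of 10 genes were higher. Erap1, the aminopeptidase that trims peptides, was lower on every celastrol array at 6 h (-0.23 ± 0.059, SE, adjusted p = 0.461). It stood 0.12 ± 0.059 (SE) higher at 1 day. Of 16 interferon response genes, 10, 2 and 8 were higher, with medians of 0.014, -0.10 and 0.0010. The guanylate-binding protein Gbp3 differed by -0.21 ± 0.083 (SE, adjusted p = 0.465) at 1 day, while the immune subunits Psmb9 and Psmb10 stood at 0.032 and 0.027 at that time. Stat2 differed by 0.17 ± 0.058 (SE, adjusted p = 0.544) at 4 days.

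Some markers of other cells passed the threshold at the later times, 5 genes at 1 day and 2 at 4 days. The summed linear intensity of 9 astrocyte markers was 38884 to 39724 after DMSO and 37688 to 38368 after celastrol at 1 day, without overlap, and 2 of the 9 were higher (median -0.058). The summed linear intensity of 9 oligodendrocyte markers was 28129 to 29829 after DMSO and 25591 to 27994 after celastrol at 4 days, without overlap, and 1 of the 9 was higher (median -0.15). The summed intensity of 9 endothelial markers was 10405 to 10897 and 11378 to 12126, while 3 of the 9 were higher (median -0.060) and their mean log2 intensity overlapped (9.51 to 9.54 and 9.32 to 9.63). At 1 day that sum was 10325 to 10471 and 11420 to 12724, and 5 of the 9 were higher (median 0.038). The summed intensity of 10 neuronal markers was 70036 to 71936 after DMSO and 68173 to 70021 after celastrol at 1 day, without overlap. Their mean log2 intensity overlapped at that time (12.307 to 12.339 after DMSO and 12.283 to 12.312 after celastrol). Of these 10 markers, 2 were higher at 1 day (median -0.034), and 0 stood at an unadjusted p under 0.05 in limma. At 4 days the neuronal sum overlapped (69015 to 70864 and 69569 to 70863). The sum of 2 erythrocyte markers was 511 to 592 and 459 to 499 at 4 days, without overlap. The part of these cells in the subunit values was not tested.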

How the data were processed

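The authors deposited log2 intensities per probe set for 20 arrays (Affymetrix Mouse Gene 1.0 ST) of hypothalamic RNA. RMA is the tool named by the submitters' notes on processing, a method of background correction, quantile normalization and probe summary, with its version not given in the sources used here. Quantile normalization holds each array's distribution nearly fixed (medians 8.60 to 8.65), so a shift of all genes would not be seen. Of 23492 probe sets, 20228 had a single gene symbol in the platform annotation. Genes whose brightest probe set lay below the 25th percentile of mean intensity (7.04) were left out of the tests.

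Groups were compared with limma 3.58.1 in R 4.3.3, with 1 mean per group, moderated by eBayes (14 residual and 4.92 prior degrees of freedom), two-sided, with Benjamini-Hochberg adjustment over 14129 genes. All adjusted p-values for genes come from limma. For arrays, their number limits the precision. If the replicates are technical, the p-values measure only that spread. No batch, scan date or collection date stands in the labels. The procedure was tested on simulated data. Permutations of gene pairs were drawn within groups (100000). The members and lists were chosen with earlier results of these data known. Named were all members past the threshold, the 3 with the smallest p in each direction at each time, the catalytic and immune subunits, the activators, and for each related list and time the gene with the smallest p; others named were chosen after their values were seen. Alternatives were other filters, scalings, probe set rules, variance models, a replicate block, and leaving out arrays. Some motifs that were searched are not reported here. Differences between DMSO times and correlations without the arrays that stood apart were added after seeing the data.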

Additional observations from a re-analysis of the deposited data

Results flagged for a closer look

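For the 45 proteasome genes and the mean over the subunits, 92 groups of 4 celastrol arrays (6 h and 1 day) were examined, and 5 held an array far from the others by Dixon's test at the 95% level, which by chance marks about 1 in 20 groups. Psma1 read 11.80 on celastrol 6 h replicate 3, where the other arrays of the group read 11.07 to 11.17. It also read 11.38 on celastrol 1 day replicate 3, against 11.20 to 11.23. Psmd1, a scaffold of the base, read 12.32 on the same 1 day array, against 12.19 to 12.21. Psmc5, an ATPase of the base, read 9.67 on celastrol 6 h replicate 3, against 9.81 to 9.82. Psmd5, a chaperone of the base, read 10.58 on celastrol 1 day replicate 4, against 10.68 to 10.69.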

How the results depend on the processing

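No proteasome gene passed for celastrol against DMSO at any time, for the mean of the times, for the difference between times or between DMSO times under any alternative tried, including every fit that left out 1 array. The number of members higher at 6 h was 11 and became 19 with renewed quantile normalization, 18 with a replicate block and 19 without both vehicle arrays that stood apart. Members called between celastrol times were 0 and became 4 with an intensity trend and robust moderation (Psma6, Psmb2, Psmb3, Psmb4), 3 with array weights, 1 with the replicate block (Psmb4) and 2 without both arrays that stood apart; the cause was not tested.

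Leaving out 1 array each, members higher ranged from 11 to 19 at 6 h, 27 to 35 at 1 day, 22 to 32 at 4 days and 20 to 31 for the mean of the times. The medians ranged from -0.051 to -0.0086, 0.013 to 0.069, 0.0031 to 0.027 and -0.0011 to 0.014, and the calls between celastrol times from 0 to 1 (Psma6, without celastrol 1 day replicate 3). The Psmb2 rise was lost with no filter (adjusted p = 0.075) and with arrays centred (adjusted p = 0.055). Same-numbered arrays of a time did not deviate together (r from -0.29 to 0.29 over 9 pairs), so the replicate numbers were not read as pairs for celastrol against DMSO. Over all groups r ranged from -0.36 to 0.52 in 46 same-numbered pairs. DMSO arrays of 6 h and 1 day with the same number did deviate together (r of 0.24, 0.25 and 0.52, the highest for the pair that stood apart). With the replicate block, adjusted p was 0.084 for Psmb4 and 0.214 for Psmb10 in that comparison and 0.044 for Psmb2 between celastrol times. With 3 or 4 arrays a group, the median SE of a member was 0.060 to 0.065 (log2), which limits what could be detected.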
